A study of Rattus norvegicus with 28 samples.

Results

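Serotonin receptor genes and the serotonin transporter gene were followed in 3 pain-control regions of adult male rats that had a hindpaw injection as newborns. The genes were Htr1a, Htr1b, Htr1d, Htr1f, Htr2a, Htr2b, Htr2c, Htr4, Htr5b and Slc6a4. They were chosen by name in the platform annotation, which assigns them 11 of the 228 features on the array, 2 of them to Htr2a, and makes them 10 of 156 named genes. The animals were injected into the left hindpaw on postnatal day 3 with either 0.25% carrageenan at 1 µl/g, a polysaccharide that causes local inflammation, or saline. They were weaned on day 21 and kept to day 59, and neither strain nor number of animals is given in the sources used here. On every array the injected animal's RNA, in one dye, was set against RNA of an animal that had no injection, in another dye. The groups were periaqueductal grey (labelled PAG) after carrageenan, with 5 arrays, and after saline, with 5; rostral ventromedial medulla (RVM) after carrageenan, with 5, and after saline, with 4; and lumbar dorsal horn (LDH) after carrageenan, left with 5 and right with 4.

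Serotonin is made by neurons of the raphe nuclei of the brain stem. The periaqueductal grey sends signals to the rostral ventromedial medulla, which holds serotonin neurons of the raphe magnus, and these send fibres down to the spinal dorsal horn, where serotonin can dampen or enhance pain signals depending on the receptor. Slc6a4 takes released serotonin back up into these neurons and is the target of many antidepressants. Receptors of the Htr1 class lower cyclic AMP in the cell, those of the Htr2 class act through phospholipase C and calcium, and Htr4 raises cyclic AMP.

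Values are log2 ratios, taken as injected over uninjected because the injected animal was channel 1 throughout; the deposited table states no direction, and if it ran the other way every sign against uninjected controls and between groups would turn. Of 348 pairs of arrays with at least 15 shared features, 311 correlated above 0 and 7 below -0.3 (lowest -0.51), which bears only on whether arrays run the same way as each other. A ratio compares 2 animals for 1 gene and says nothing about how abundant its mRNA was. An exact 0, found in 55.9% of all values, was taken as not measured. Arrays measured 7 to 195 of 228 features, and the small number of arrays limits precision. The labels do not tell whether each array had its own animal, or whether arrays of different regions came from the same animals. P-values therefore measure only how much these arrays vary, part of which may be technical. The RNA came from whole tissue, where fewer cells of a type and less RNA per cell cannot be told apart. Dyes were never swapped, so effects of dye and of injection on a ratio against uninjected controls cannot be told apart. Only 2 of 23 marker genes of neurons, glia and vessels are named on the array, Slc6a4 and Slc6a2, so the dissected regions could not be checked against their cell types.

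Whether a serotonin gene could be measured at all differed widely between genes. Htr2a feature 11, Htr2c and Htr4 were measured on 24 of 28 arrays each and Htr1d on 22. Htr5b was measured on 13, Slc6a4 on 12, and Htr1a and Htr2a feature 12 on 9 each. Htr1b was measured on 4 arrays, Htr1f on 3 and Htr2b on 1. In all, 145 of 308 serotonin values (47.1%) were measured, against 44.1% over all features. The tests below needed 3 measured arrays in each group of the fit, which 7 of the 11 features met in at least 1 comparison. The other 4, of Htr1b, Htr1f and Htr2b and the second of Htr2a, are given as values, with fits of a group alone added for the second of Htr2a.

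**Figure D1:**
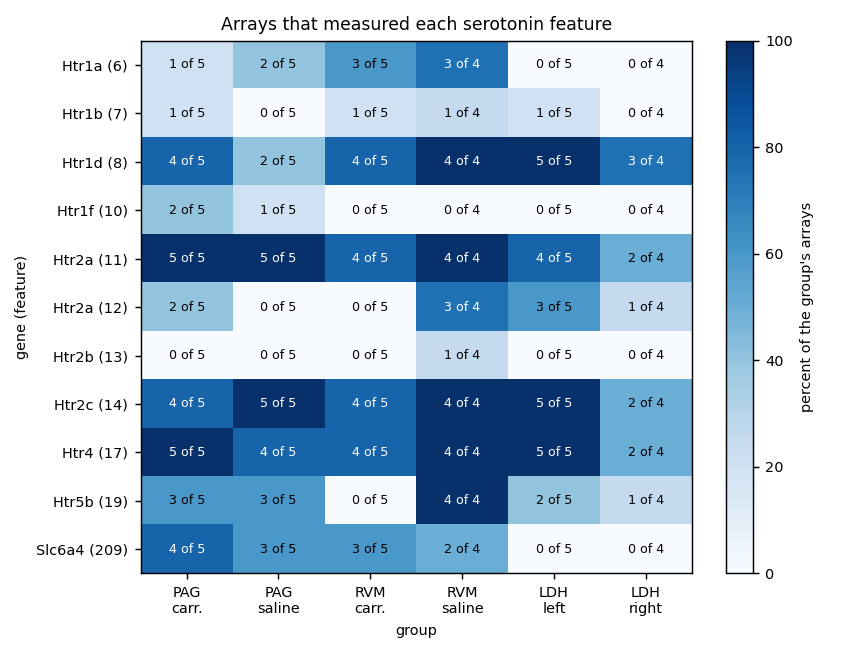
Number of arrays that measured each of the 11 serotonin features (rows) in each group (columns), with colour giving the percent of the group's arrays. Slc6a4 and Htr1a were measured on 0 of the 9 LDH arrays, and Htr5b on 0 of 5 RVM carrageenan arrays against 4 of 4 RVM saline arrays. Over all features of the array, RVM carrageenan arrays measured 30.6% of values and RVM saline arrays 63.8%.

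The transporter gene Slc6a4 lay above the uninjected controls on every PAG array that measured it. Its log2 ratios were 1.27, 1.14, 0.63 and 0.47 on PAG carrageenan arrays 1, 2, 3 and 5. On PAG saline arrays 1, 3 and 4 they were 0.43, 0.32 and 0.69. The groups overlapped, and the carrageenan minus saline difference was 0.39 (95% interval -0.21 to 1.00; limma adjusted p = 0.432). After quantile normalization that difference turned to -0.0613. Set against uninjected controls, Slc6a4 was the only serotonin feature that passed by limma in any comparison: it rose in PAG carrageenan, averaging 0.88 ± 0.39 (SD, n = 4; 95% interval 0.48 to 1.27; limma adjusted p = 0.0224). There 1 of 5 serotonin features passed, against 14.1% of all 78 features tested (11 of 78). At an unadjusted p below 0.05 the counts were 4 of 5 and 33.3%. In PAG saline Slc6a4 averaged 0.48 ± 0.19 (n = 3, limma adjusted p = 0.383, or 0.88 with limma adjusted p = 0.0649 after quantile normalization). In that group 0% of 78 features passed by limma and 11.5% had an unadjusted limma p below 0.05. The exact permutation test against uninjected controls cannot pass there with at most 5 arrays.

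The Slc6a4 call rested on few arrays. Without PAG carrageenan array 1 its limma adjusted p was 0.0576, and without array 2 it was 0.0704. It was 0.0599 with zeros kept as 0, 0.112 after quantile normalization, 0.13 with all 6 groups in 1 fit and 0.149 with the group fitted alone, while the mean stayed between 0.70 and 0.88. With 4 measured arrays an exact sign-flip permutation test cannot give a p below 0.125, which is the value it gave.

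In the medulla the transporter showed no common direction. On RVM carrageenan arrays 1, 3 and 5 its ratios were -0.03, 0.42 and 0.19. The 2 RVM saline arrays that measured it gave -1.55 and 1.21. In the dorsal horn it was measured on 0 of 9 arrays, although 12 of 19 PAG and RVM arrays measured it. Htr1a also had 0 of 9 there and 9 of 19 in the other regions. Over all 228 features, 39 (17.1%) were measured on no LDH array. Of the 111 features measured on at least 9 PAG and RVM arrays, 3 (2.70%) were measured on no LDH array: Slc6a4, Htr1a and the unnamed feature 146. That limit was set after seeing these values and equals the count of Htr1a, so the smaller share depends on it. The table does not say why a value is 0, so low RNA and a failed spot cannot be told apart.

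Among the serotonin features, Htr4 had the smallest p-values for carrageenan against saline, with estimates of opposite sign in the midbrain and the medulla. Its log2 ratios on PAG carrageenan arrays 1 to 5 were 1.08, 0.06, 0.18, 1.12 and 0.44. On PAG saline arrays 1 to 4 they were -0.03, -0.27, -0.09 and -0.72. The groups did not overlap, which held for 3.85% of the 78 features tested (3 of 78). All carrageenan values were above 0 and all saline values below it. The difference was 0.85 (95% interval 0.22 to 1.49; exact permutation p = 0.0238; limma p = 0.0148, adjusted p = 0.333, the third smallest p of 78). No feature passed here (0% by limma and 0 by the exact permutation test), while 12.8% of features, and 1 of 5 serotonin features, had an unadjusted limma p below 0.05.

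In RVM, Htr4 gave -0.08, 0.29, 0.08 and -0.08 on carrageenan arrays 1, 2, 3 and 5. On saline arrays 1 to 4 it gave 0.17, 1.22, 1.09 and 0.11. Carrageenan values lay close to 0 and all 4 saline values above it, with an overlap between the groups. The carrageenan minus saline difference was -0.59 (95% interval -1.29 to 0.10; limma adjusted p = 0.465), and -0.33 after quantile normalization. Across RVM, 0% of 56 features passed by limma and 0 by the exact permutation test, and 7.14% had an unadjusted limma p below 0.05, 0 of 5 serotonin features among them.

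The difference between regions was tested directly. The PAG difference minus the RVM difference of Htr4 was 1.45 (95% interval 0.56 to 2.33; limma adjusted p = 0.0806), the second smallest p of 48 features. By limma 0% of features passed and 6.25% had an unadjusted p below 0.05, 1 of 3 serotonin features among them. An exact permutation test that shuffled the arrays between carrageenan and saline within each region gave p = 0.00272 (adjusted p = 0.0435), and 6.25% of features (3 of 48) passed it: Htr4, Tac1 feature 55 and Gabbr1 feature 76 (genes outside the serotonin family are named here and below after their values were seen). That test takes as its null that the injection made no difference in either region, so a difference in 1 region alone could also give a small p. Leaving out 1 array at a time, the difference ran from 1.26 to 1.63 and the limma adjusted p from 0.0417, without RVM saline array 1, to 0.188.

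The number of features an array measured moved with these Htr4 differences. PAG carrageenan arrays measured 86 to 181 features (median 157), against 33 to 95 (median 92) on PAG saline arrays. RVM carrageenan arrays measured 29 to 110 (median 72), against 100 to 195 (median 143.5) on RVM saline arrays. In both regions the group with the higher Htr4 ratios was the one that measured more features, and the part of this in the result was not tested. With every array of fewer than 40 measured features left out, a choice made after seeing the data, Htr4 differed by -0.67 in RVM and by 1.52 between PAG and RVM. In PAG this removed only saline array 5, which had not measured Htr4, so that value could not change.

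**Figure D2:**
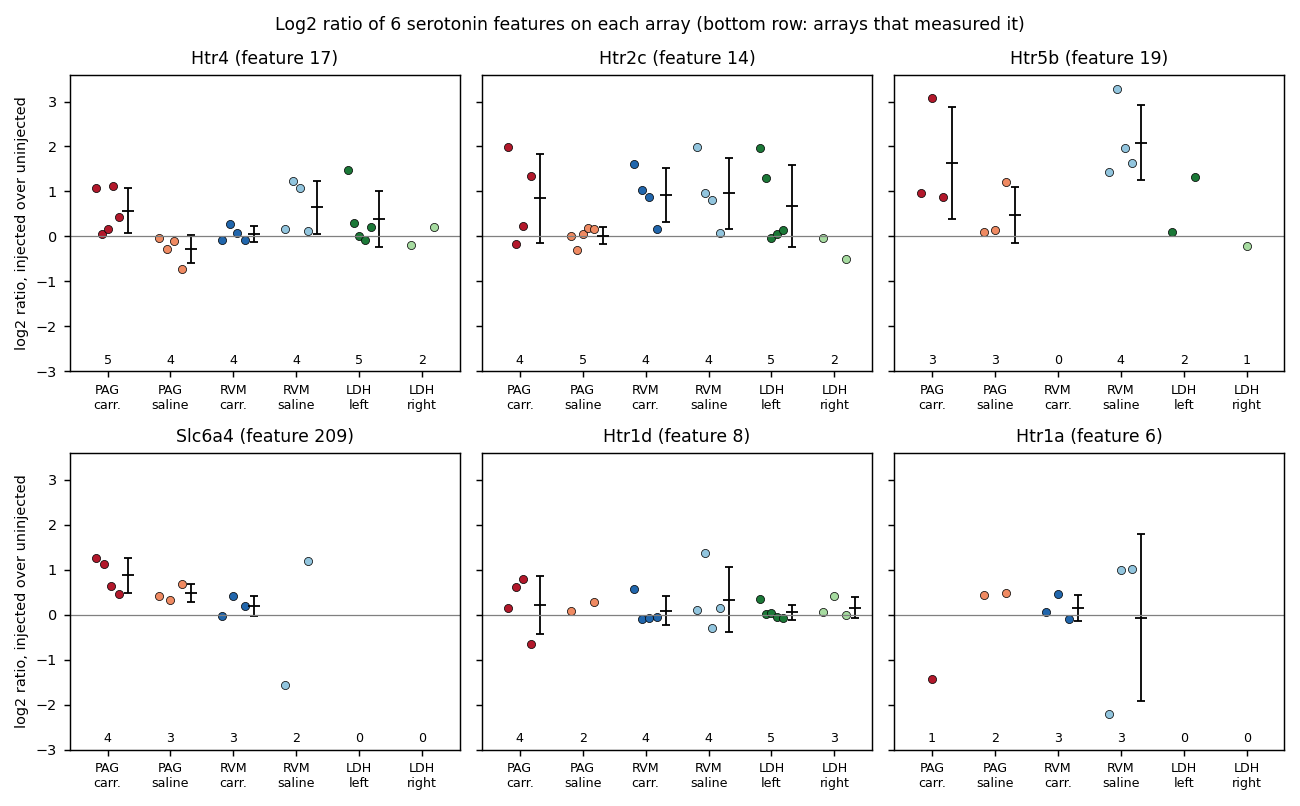
Log2 ratio (injected over uninjected) of 6 serotonin features on each array, by group; points are arrays, black bars the mean ± SD where at least 3 arrays measured the feature, and the numbers at the bottom the arrays that did. For Htr4 the 5 PAG carrageenan points lie at 0.06 to 1.12 and the 4 PAG saline points at -0.72 to -0.03.

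**Figure D3:**
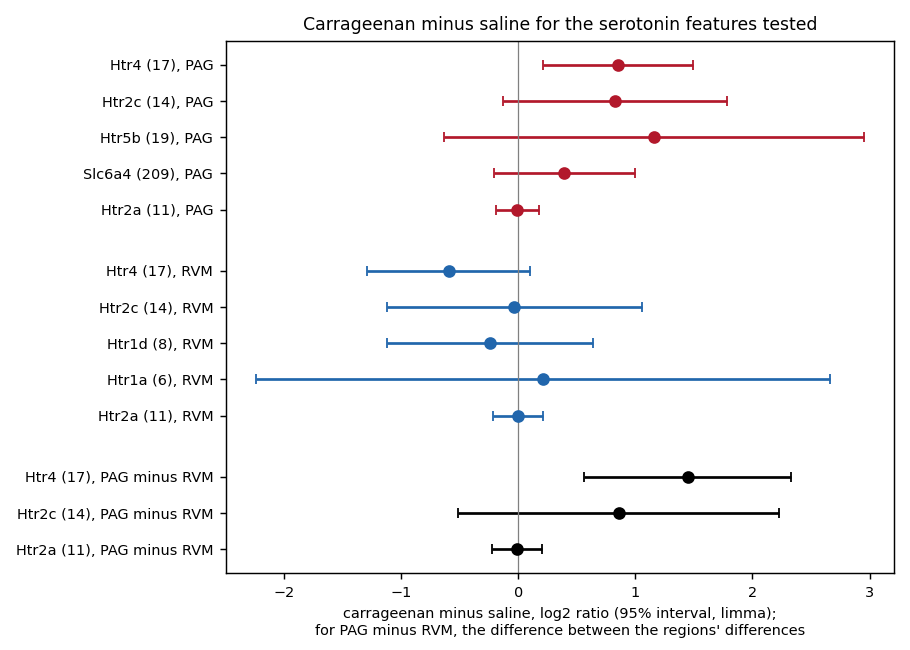
Carrageenan minus saline in log2 ratio for the serotonin features tested in PAG (red) and RVM (blue), and the PAG difference minus the RVM difference (black); points are limma estimates and bars 95% intervals. Intervals of Htr4 exclude 0 in PAG (0.22 to 1.49) and between the regions (0.56 to 2.33), and none of the limma adjusted p-values was below 0.05.

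Compared between regions under one treatment, Htr4 was lower in PAG saline than in RVM saline, by -0.93 (95% interval -1.57 to -0.28; exact permutation p = 0.0286, the smallest that 4 arrays against 4 can give; limma adjusted p = 0.208). It had the smallest limma p of 48 features, and its groups did not overlap, as in 6.25% of features (3 of 48). In that comparison 0% of features passed by limma and 0 by the exact permutation test, and 8.33% had an unadjusted limma p below 0.05. After carrageenan the PAG minus RVM difference was 0.52 (95% interval -0.09 to 1.13; limma adjusted p = 0.57), in a comparison where 0% of features passed by either test and 2.08% had an unadjusted limma p below 0.05. These comparisons use the same arrays as those above and add no independent evidence.

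Against uninjected controls Htr4 averaged 0.58 ± 0.50 in PAG carrageenan (n = 5; limma adjusted p = 0.0781) and -0.28 ± 0.31 in PAG saline (n = 4; adjusted p = 0.609), or -0.13 without PAG saline array 4. In RVM the averages were 0.05 ± 0.17 after carrageenan (n = 4; limma adjusted p = 0.976) and 0.65 ± 0.59 after saline (n = 4; adjusted p = 0.094). By group mean, with the ratio read as injected over uninjected, RVM saline stood first, followed by PAG carrageenan, LDH left at 0.38, RVM carrageenan, LDH right at 0.0015 (2 arrays) and PAG saline last; the order is reversed if the ratio runs the other way. No neighbours in this order differed by more than the larger of their SDs.

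Htr2c, a receptor found through much of the brain and edited at the RNA level, was above its uninjected control on 19 of the 24 arrays that measured it. On PAG carrageenan arrays 1 to 4 its log2 ratios were 1.98, -0.17, 0.22 and 1.35. On PAG saline arrays 1 to 5 they were 0.01, -0.31, 0.06, 0.18 and 0.16. Carrageenan arrays 1 and 4 were high, the same arrays on which Htr4 was highest, and the other 2 lay near the saline values. The difference was 0.83 (95% interval -0.13 to 1.79; exact permutation p = 0.103; limma adjusted p = 0.432). Leaving out 1 array at a time it ran from 0.45, without PAG carrageenan array 1, to 1.16.

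In RVM, Htr2c lay above 0 on 8 of the 8 arrays that measured it. The ratios were 1.62, 1.04, 0.89 and 0.16 on carrageenan arrays 1, 2, 3 and 5, and 1.99, 0.96, 0.81 and 0.08 on saline arrays 1 to 4. Both groups covered nearly the same range, and the carrageenan minus saline difference was -0.03, with a wide 95% interval of -1.12 to 1.06 (limma adjusted p = 0.997). Its sign was not stable: it was 0.79 after quantile normalization and 0.31 without RVM saline array 1. Against uninjected controls the mean was 0.93 ± 0.60 after carrageenan (n = 4; limma adjusted p = 0.511) and 0.96 ± 0.79 after saline (n = 4; limma adjusted p = 0.109; 0.61 without array 1). In PAG it was 0.85 ± 0.99 after carrageenan (n = 4; limma adjusted p = 0.109; 0.47 without array 1) and 0.02 ± 0.20 after saline (n = 5; adjusted p = 0.964). Htr2c did not pass in any of the 9 comparisons that tested it. The difference between the regions' differences was 0.86 (95% interval -0.51 to 2.23).

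In RVM carrageenan 0 of 5 serotonin features passed against uninjected controls, against 1.79% of 56 features, and 1 of 5 (Htr2c) had an unadjusted limma p below 0.05, against 8.93%. In RVM saline 0 of 5 passed, against 5.36%, and 2 of 5 (Htr2c and Htr4) had an unadjusted p below 0.05, against 23.2%. Without RVM saline array 4, Htr2c averaged 1.25 and Htr4 0.83 in that group, and both passed (limma adjusted p = 0.0439 each). Without it, 9 features passed out of fewer than 56 tested, against 3 of 56 (5.36%) with it. The share that passed therefore rose over all features, and the added calls were not confined to serotonin features.

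**Figure D4:**
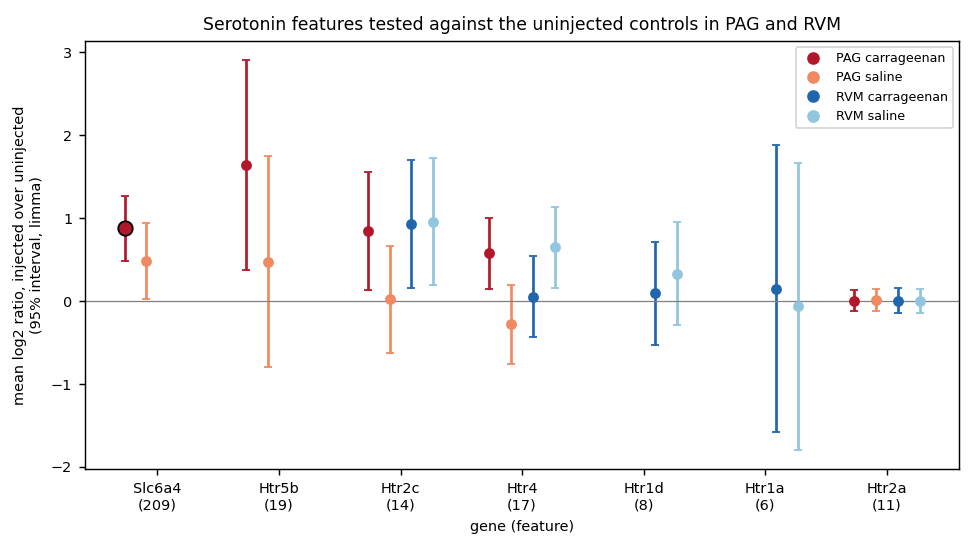
Mean log2 ratio against uninjected controls, with 95% intervals from limma, for the serotonin features tested in PAG and RVM; colours are groups, and a feature without a point in a group was not tested there. The larger outlined point, Slc6a4 in PAG carrageenan at 0.88, is the only one with an adjusted p below 0.05.

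Htr5b, a receptor that is functional in rodents but a pseudogene in humans, was above its uninjected control on all 10 PAG and RVM arrays that measured it, but was measured unevenly. On PAG carrageenan arrays 1, 2 and 3 its log2 ratios were 0.97, 3.07 and 0.87. On PAG saline arrays 3, 4 and 5 they were 0.09, 0.14 and 1.20. The groups overlapped and array 2 alone was far above the rest, with a difference of 1.16 (95% interval -0.63 to 2.95; exact permutation p = 0.3; limma adjusted p = 0.432). Its mean against uninjected controls was 1.64 ± 1.24 in PAG carrageenan (n = 3; limma adjusted p = 0.106) and 0.48 ± 0.63 in PAG saline (n = 3; adjusted p = 0.765).

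In RVM no carrageenan array measured Htr5b, while all 4 saline arrays did, at 1.44, 3.29, 1.96 and 1.64. Of 228 features, 6 (2.63%) were measured on 0 of 5 carrageenan and 4 of 4 saline arrays: Htr5b, Adora3, Il11, Il13, Pomc feature 192 and the unnamed feature 4. The reverse pattern was found for 0 features, and 69 were measured on all 4 saline arrays. Over all features, RVM carrageenan arrays measured 30.6% of values and RVM saline arrays 63.8%. The part of this gap in the Htr5b pattern was not tested. Because no carrageenan value exists, the groups could not be compared on measured values. With the saline group fitted alone its mean was 2.08 ± 0.83 (n = 4; 95% interval 1.08 to 3.09; limma adjusted p = 0.074). With every exact 0 kept as a ratio of 0, Htr5b differed by -2.08 between carrageenan and saline in RVM (limma adjusted p = 0.0146). There 4 of 212 features passed. Between the regions' differences it differed by 2.78 (limma adjusted p = 0.0406), where 6 of 225 features passed. Those values rest on reading 5 unmeasured RVM carrageenan ratios as no change. These 5 have no spread and the RVM difference only restates the saline mean, so the p-values are no evidence of a difference between treatments. Across all 28 arrays, Htr5b was above 0 on 12 of 13.

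Receptors of the Htr1 class gave ratios on both sides of 0. Htr1d, which on nerve endings restrains release of serotonin and neuropeptides and is a target of the triptan drugs, was measured in all 6 groups. Its log2 ratios were 0.15, 0.61, 0.79 and -0.66 on PAG carrageenan arrays 1 to 4. The 2 PAG saline arrays that measured it gave 0.08 and 0.28, fewer than the 3 that the tests required. With 2 arrays allowed, the carrageenan minus saline difference was 0.04 (95% interval -1.11 to 1.19; limma adjusted p = 0.953). In RVM it gave 0.58, -0.09, -0.06 and -0.06 on carrageenan arrays 1 to 4, and 0.10, 1.37, -0.28 and 0.14 on saline arrays 1 to 4. Within each RVM group 1 array was far above the others, and the difference of -0.24 (95% interval -1.12 to 0.64; limma adjusted p = 0.85) turned to 0.11 without RVM saline array 2.

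Htr1d was also the only serotonin feature with 3 measured arrays on each side of the dorsal horn. The left horn, on the same side as the injected paw, gave 0.35, 0.01, 0.04, -0.04 and -0.08 on arrays 1 to 5. On the right, arrays 2, 3 and 4 gave 0.06, 0.43 and -0.005. The sides overlapped, and left minus right was -0.10 (95% interval -0.58 to 0.37; limma adjusted p = 0.854). Of 29 features tested 0% passed by limma, 0 by the exact permutation test and 0 at an unadjusted limma p below 0.05. Against uninjected controls Htr1d averaged 0.06 ± 0.17 on the left (n = 5; limma adjusted p = 0.718) and 0.16 ± 0.23 on the right (n = 3; adjusted p = 0.728). On the left 0% of features passed by limma and 17.2% had an unadjusted limma p below 0.05, and on the right these shares were 0% and 3.45%. Against uninjected controls the exact permutation test cannot pass with at most 5 arrays.

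Htr1a, the receptor through which raphe neurons slow their own firing, was tested in RVM alone. It gave 0.07, 0.47 and -0.10 on carrageenan arrays 1, 3 and 5, and -2.20, 1.00 and 1.01 on saline arrays 1, 2 and 4. The saline values spread over more than the whole carrageenan range on both sides, and the difference was 0.21 (95% interval -2.24 to 2.66; limma adjusted p = 0.997). In PAG the 1 carrageenan array that measured it gave -1.43, against 0.44 and 0.48 on 2 saline arrays.

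Htr1b, another receptor that restrains release at nerve endings, was measured on 1 array each in PAG carrageenan (0.20), RVM carrageenan (-0.82), RVM saline (0.48) and LDH left (0.31). Htr1f, a receptor of the same class that migraine drugs also target, gave 0.63 and -0.72 on PAG carrageenan arrays and -0.92 on 1 PAG saline array. Htr2b, a receptor best known from heart valves and vessels, was measured once, at 1.94 in RVM saline, on the array that measured the most features (195).

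The 2 features of Htr2a, the receptor on which classical hallucinogens act, behaved differently from each other. Feature 11 was measured on 24 arrays and never left the range from -0.02 to 0.05. Its SD within groups was 0.0154, the smallest of 152 features with at least 4 degrees of freedom, against a median of 0.97. The carrageenan minus saline difference was -0.0098 in PAG (95% interval -0.19 to 0.17; limma adjusted p = 0.942) and 0.00025 in RVM (95% interval -0.21 to 0.21; adjusted p = 0.998). By design limma draws the variance of each feature toward that of the others. These intervals (standard error 0.082 in PAG) are therefore wider than the feature's own spread between arrays would give. Ratios do not show whether a spot was saturated in both channels, so ratios this near 0 cannot be read as an unchanged gene. With values this near 0, some of its 4 exact zeros may be measured ratios that were rounded.

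Feature 12 of the same gene was measured on 9 arrays and ranged from -3.15 to 1.01. It gave 1.01 and -0.74 on 2 PAG carrageenan arrays. RVM saline arrays 1, 2 and 4 gave -2.15, -0.33 and -0.16. In the dorsal horn it gave -0.26, -0.21 and -1.32 on left arrays 2, 3 and 4 and -3.15 on right array 4. It was below 0 on 8 of 9 arrays, and no comparison had 3 measured arrays in each group. With the group fitted alone against uninjected controls, its mean was -0.88 in RVM saline (limma adjusted p = 0.42) and -0.595 in LDH left (limma adjusted p = 0.521). On each of its 9 arrays feature 12 lay farther from 0 than feature 11 did on any, so Htr2a has no single value here.

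**Figure D5:**
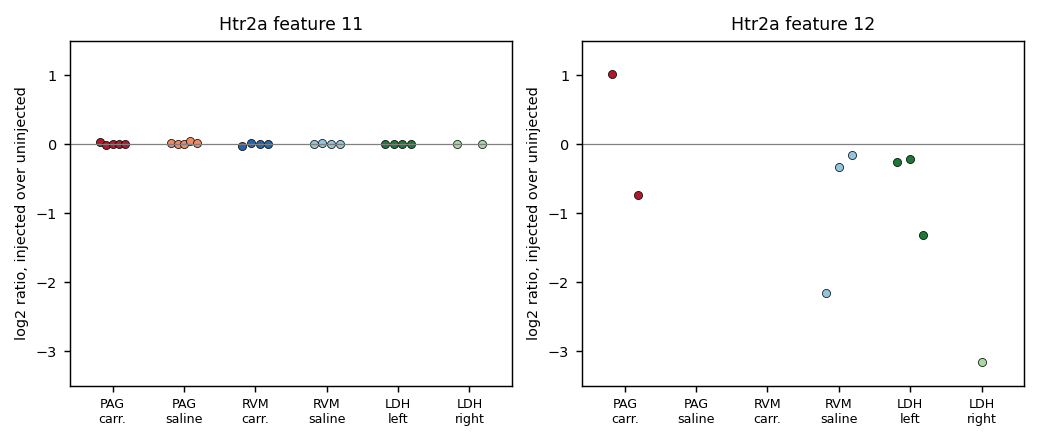
Log2 ratio (injected over uninjected) of the 2 Htr2a features on each array that measured them, by group, on the same scale. Feature 11 stays between -0.02 and 0.05, whereas feature 12 runs from -3.15 to 1.01.

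The other dorsal horn values of the family were few. Htr4 gave 1.48, 0.30, 0.003, -0.07 and 0.21 on the left, and -0.20 and 0.20 on right arrays 2 and 4. Htr2c gave 1.97, 1.29, -0.05, 0.05 and 0.14 on the left, and -0.04 and -0.50 on right arrays 2 and 4. Left array 1 held the highest value of both genes. With 2 measured arrays allowed, left minus right was 0.38 for Htr4 (95% interval -0.73 to 1.49; limma adjusted p = 0.829) and 0.95 for Htr2c (95% interval -0.62 to 2.51; limma adjusted p = 0.782). With the left side fitted alone, neither these genes nor either Htr2a feature passed against uninjected controls (limma adjusted p of 0.521 to 0.96). Htr5b gave 0.10 and 1.33 on left arrays 2 and 3 and -0.21 on right array 2. The right side had 11 serotonin values in all, 4 of them above 0, and right array 1, which measured 7 features, had none.

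Counted over all arrays, 99 of 145 measured serotonin values (68.3%) lay above 0, against 50.7% of all measured values. The share was similar among other amine genes, at 64.6% (122 of 189), and lower among the other serotonin receptors, at 41.5% (17 of 41). Of those 41 values 25 were of Htr5a, 10 of them above 0. Of the 145 serotonin values 24 were of Htr2a feature 11, 16 of them above 0. Both features stayed near 0, so the signs of their values carry little weight. With the ratio turned, 31.7% of serotonin values would lie above 0, against 49.3% of all. By group the shares above 0 were 77.4% in PAG carrageenan, 72% in PAG saline, 60.9% in RVM carrageenan, 70% in RVM saline, 72% in LDH left and 36.4% in LDH right, while those over all features ran from 46.8% to 52.7%. The values share arrays and features, so this is a description. Among features tested for carrageenan minus saline, 4 of 5 serotonin features were above 0 in PAG with a median of 0.83, where 59% of all 78 were above 0 with a median of 0.14. In RVM these were 2 of 5 with a median of -0.03, against 37.5% and -0.10 over all 56.

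Further serotonin genes on the array were mostly unmeasured. Of 12 listed genes of serotonin synthesis, storage, breakdown and reception, 5 were named, all receptors: Htr3a, Htr3b, Htr5a, Htr6 and Htr7. Htr3a, which with Htr3b forms an ion channel, was measured on 4 arrays, Htr3b on 1 and Htr6 on 2. Htr7 was measured on 9, from -2.29 to 4.34. Only Htr5a could be tested, and it passed in 0 of the 9 comparisons that included it. Like Htr2a feature 11 it stayed near 0, between -0.17 and 0.01 on 25 arrays, with the second smallest SD of the 152 features (0.0362). Of the 15 features of other amine genes (adrenergic and histamine receptors and the noradrenaline transporter), 5 were tested in PAG, 3 of them higher after carrageenan (median 0.43). In RVM 4 were tested and 0 were higher (median -0.39); 0 passed in either region.

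By the mean absolute difference of the 6 group means, 65 candidate features with enough values could be set beside each of 4 serotonin features. Nearest to Htr4 were Il1b (0.14) and Tacr2 (0.15), and nearest to Htr2c were Cckbr (0.28) and Il1b feature 117 (0.33). Nearest to Htr1d were Sstr3 (0.10) and Sstr2 (0.13). Nearest to Htr2a feature 11 were Htr5a (0.0149), the other feature that stayed near 0, and Il10ra (0.07).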

How the data were processed

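The authors deposited a log2 ratio for each feature on each array, from custom 2-colour oligonucleotide arrays (TRIzol RNA, 3DNA labelling, per the labels' protocols); scanning, spot filters, background correction and normalization are not given in the sources used here. The log base was inferred from the range, -13.2 to 10.5. Array medians of measured values lay between -0.061 and 0.083, so nothing was centred. Of 202 named features 191 were matched to a RefSeq gene table (assembly GRCr8) and took its symbol, the rest keeping the annotation's name. Features of 1 gene were kept separate.

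Each of 12 comparisons was fitted across all features with limma 3.58.1 (R 4.3.3; lmFit, eBayes, two-sided, intervals at 95%) on the arrays of its region, or of PAG and RVM together for comparisons between regions, with no covariates. A feature entered with at least 3 measured arrays in each group of the fit. P-values were adjusted by Benjamini-Hochberg over all features tested, at 0.05. Exact permutation tests were two-sided. Alternatives were median centring, quantile normalization, 1 fit of all 6 groups, at least 2 measured arrays, zeros kept as 0, a replicate block, exact permutation, the group fitted alone, and leaving out each array; leaving out arrays with fewer than 40 measured features was added after seeing the data. The fit was tested on simulated ratios with shifts larger than any carrageenan minus saline difference of a serotonin feature. That test therefore does not show how well differences of the reported sizes would be found. Every serotonin feature is named; likeness is the mean absolute difference of group means. The genes, lists and tests were chosen with earlier results of these data known.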

Additional observations from a re-analysis of the deposited data

Results flagged for a closer look

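Within groups of 4 or more measured arrays, 21 groups of a serotonin feature were screened for 1 array far from the others, a screen that by chance picks about 1 in 20. It picked 3. Htr1d was 0.58 on RVM carrageenan array 1, while the other 3 lay between -0.09 and -0.06. Htr4 was 1.48 on LDH left array 1, while the other 4 lay between -0.07 and 0.30. Htr2a feature 11 was 0.014 on RVM saline array 2, while the other 3 lay between -0.004 and -0.001, a gap of little size.

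By estimate, the carrageenan minus saline difference of Htr4 was higher in PAG than in RVM by 1.45, with a limma adjusted p of 0.0806, which did not pass. The exact permutation adjusted p was 0.0435, under the null that the injection made no difference in either region. The number of features measured per array moved with the Htr4 differences, and its part was not tested.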

How the results depend on the processing

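Of 42 test results of serotonin features, 23 kept their direction and their side of the threshold under all alternatives that could be fitted. A fit in which a feature fell below 3 measured arrays in a group is missing from this count. Htr5b in PAG had 4 fits without 1 array (carrageenan minus saline 1.16 in each), and Htr1a in RVM had 3 (0.21 in each). Only arrays that had not measured the gene could be left out there. Their results were therefore never refitted without a measured array. Against uninjected controls no group has enough arrays for the exact permutation test to pass. Features called numbered 11 in PAG carrageenan against uninjected. They became 0 after quantile normalization, 7 with all 6 groups in 1 fit, 0 by exact permutation and 1 with the group fitted alone (1 to 9 without 1 array). In RVM saline against uninjected 3 became 1, 0, 0 and 1 under the same settings, and 9 with zeros kept (0 to 9 without 1 array). In RVM carrageenan against uninjected 1 became 0 with 1 fit, exact permutation, the group alone and zeros kept (0 to 1). In PAG saline against uninjected 0 became 4 after quantile normalization and 1 with 1 fit (0 to 1). Carrageenan against saline gave 0, but 1 in PAG with 1 fit or zeros kept, and in RVM 1 with at least 2 arrays and 4 with zeros kept (0 to 1). With zeros kept the region comparisons gave 1 after carrageenan and 4 after saline, and the interaction, the PAG difference minus the RVM difference, 6 (3 by exact permutation, 0 to 2 without 1 array).

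Signs turned after quantile normalization for Slc6a4 in PAG (-0.0613, carrageenan minus saline), Htr2c in RVM (0.79, likewise), the Htr2c interaction (-0.29) and Htr1d in LDH left (-0.0098). Without arrays of fewer than 40 features they turned for Htr2c in PAG saline (-0.0145) and Htr4 in RVM carrageenan (-0.0243). Leaving out 1 array, ranges that crossed 0 were -0.33 to 0.31 for Htr2c in RVM (carrageenan minus saline), -0.0205 to 0.10 for it in PAG saline and -0.46 to 0.26 for it between regions after carrageenan. For Htr4 in RVM carrageenan the range was -0.0243 to 0.0963. For Htr1d the ranges were -0.45 to 0.11 in RVM (carrageenan minus saline), -0.07 to 0.15 and -0.0133 to 0.54 in RVM carrageenan and saline, and -0.0175 to 0.0903 in LDH left. Htr2a feature 11, whose values are near 0, turned in RVM carrageenan minus saline (-0.0015 centred, -0.00324 quantile, -0.00015 with zeros kept, -0.00575 without sparse arrays; -0.00575 to 0.00825 without 1 array), PAG carrageenan (-0.0288 centred, -0.0126 quantile; -0.00075 to 0.01), RVM carrageenan (-0.00938, -0.0052, and -0.004 without sparse arrays; -0.004 to 0.01), RVM saline (-0.00788, -0.00197; -0.00233 to 0.00367) and between regions after carrageenan (-0.0194, -0.00742; -0.0036 to 0.0104). The cause was not tested.

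Between the groups of a region, correlations of same-numbered arrays' deviations ran from -0.78 to 0.37. The lowest was that of the LDH arrays numbered 1, on only 7 shared features. The next lowest was -0.33, for the PAG arrays numbered 3, on 87 features. Closest to their own number were 3 of 10 PAG, 3 of 9 RVM and 0 of 9 LDH arrays, so the numbers were not taken as pairs. PAG arrays were not set against RVM arrays in this check, so it does not tell whether these regions share animals. The comparisons between regions treated all arrays as independent. The block's estimated correlation was nevertheless 0.409 in LDH, against -0.0709 in PAG and 0.0247 in RVM. With the number as a replicate block, 9 features passed in PAG carrageenan against uninjected, Slc6a4 among them, and no serotonin call changed.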
